A study of Mus musculus with 12 samples.

Results

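The genes described here are 8 members of the myeloid growth factor axis: the ligands Csf1 and Il34, the receptor genes Csf1r, Csf2ra and Csf2rb, and the transcription factor genes Spi1, Irf8 and Runx1. They were chosen by symbol, and all 8 were found among the 25749 genes listed in every table. Each of 12 male B6 mice, 13 weeks of age, gave 1 library of brain RNA. The 4 uninjured mice had no injury, 4 injured mice had a cerebrovascular injury, and 4 further mice had the injury and αLFA1/VLA4 given continuously, antibodies to 2 integrins that leukocytes use to enter tissue. These last mice are called antibody-treated. On day 20 the mice were perfused with saline and a cube of brain, 3 mm along each edge, was taken. The labels name neither the brain region of the cube, nor a sham operation, nor a control antibody, so handling and antibody cannot be told apart from their groups.

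CSF1 and IL-34 are unrelated proteins that bind the same receptor, CSF1R, whose signal keeps microglia and other macrophages alive. In the forebrain IL-34 is made mainly by neurons, and CSF1 mainly by glia. GM-CSF (the product of Csf2) binds the alpha chain CSF2RA together with the beta chain CSF2RB, which the IL-3 and IL-5 receptors share. PU.1 (Spi1), IRF8 and RUNX1 are transcription factors of blood cell development, and PU.1 and IRF8 remain active in mature microglia.

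Exon reads per library ranged from 15159988 to 15781229 in uninjured, from 15507462 to 16121577 in injured and from 13330379 to 13917157 in antibody-treated mice. Mitochondrial reads took 10.3% to 12.01% of exon reads in uninjured, 4.75% to 7.99% in injured and 8.83% to 11.01% in antibody-treated libraries. On the first principal component uninjured replicate 1 and antibody-treated replicate 4 were the extremes. All 11 homeostatic microglia markers were read in every group, and in a tissue sample more such cells cannot be told apart from more RNA per cell. Skeletal muscle markers summed to 8.27 to 12.01 CPM in uninjured, 10.7 to 13.0 in injured and 73.2 to 102 in antibody-treated libraries.

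Between genes, levels were compared in TPM, which divides reads by exon length. In uninjured mice Il34 averaged 61.9 ± 4.68 TPM (SD, n = 4) and Csf1r 51.8 ± 0.605 TPM. Csf2ra followed at 16.2 ± 1.63 TPM and Csf1 at 11.1 ± 0.555 TPM. Spi1 at 4.38 ± 0.790 and Irf8 at 4.22 ± 0.428 TPM were within each other's spread. Csf2rb at 0.936 ± 0.217 TPM and Runx1 at 0.352 ± 0.0961 TPM were lowest. The order was that of the receptor and the ligand of resident microglia first and the transcription factors and the beta chain last. In antibody-treated mice Csf1r (52.8 to 61.7 TPM) and Il34 (52.8 to 55.4 TPM) overlapped, while the 6 other genes kept their ranks except that Irf8 (7.33 ± 0.514 TPM) and Spi1 (6.86 ± 0.667 TPM) again lay within each other's spread.

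**Figure D1:**
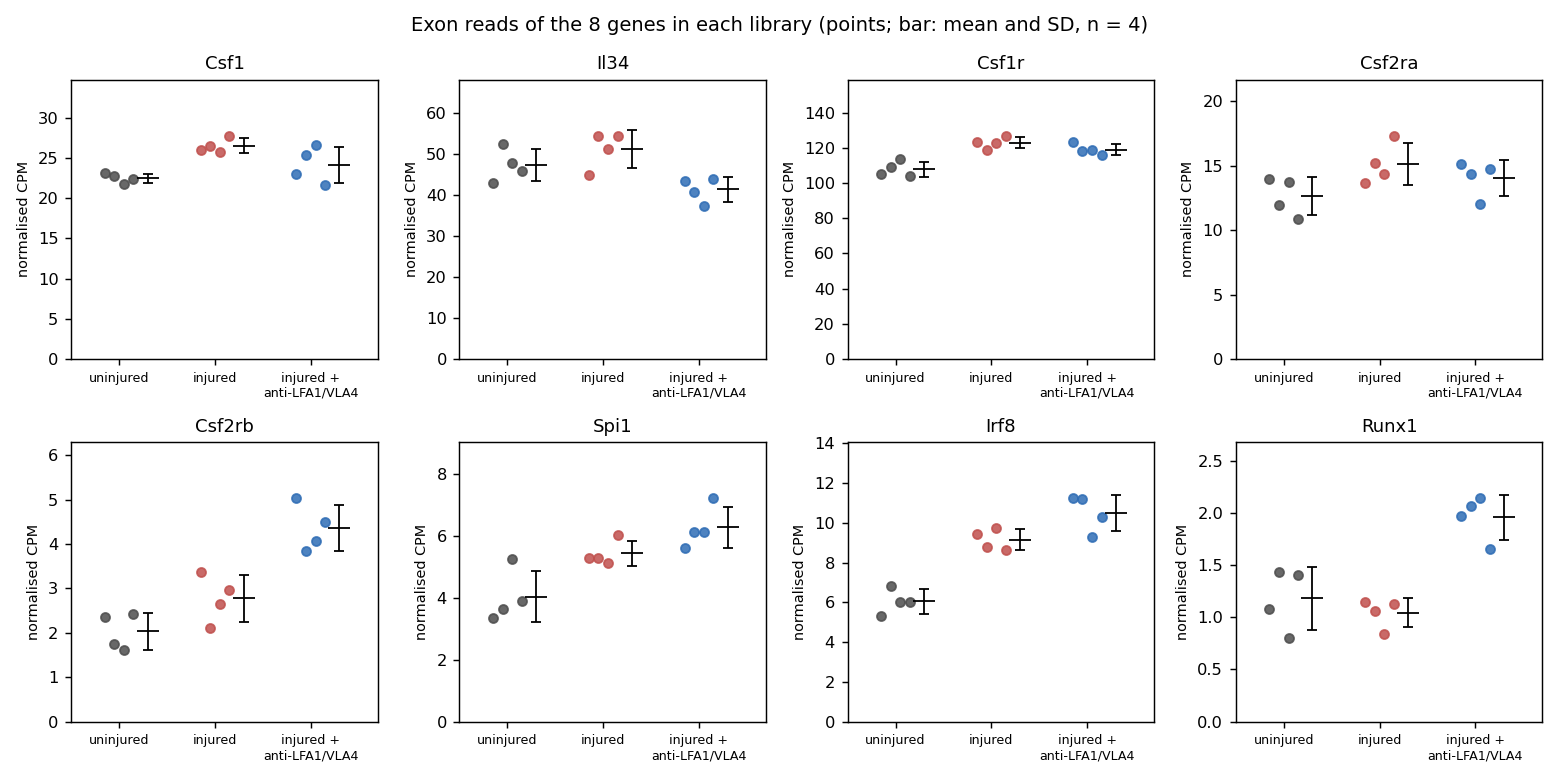
Each panel gives normalised CPM (exon reads scaled to TMM-normalised library size, axis from 0) of 1 gene in the 12 libraries, with the mean and SD of 4 libraries per group beside the points. Irf8 in injured mice (8.64 to 9.76 CPM) lies above uninjured mice (5.31 to 6.84 CPM), and Csf2rb and Runx1 in antibody-treated mice lie above both other groups.

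All 8 genes passed the count filter and were tested in 1 model with all 14771 tested genes. In injured against uninjured mice 4 of the 8 rose (Irf8, Spi1, Csf1 and Csf1r), where 11.9% of all tested genes were higher. No member was lower at an edgeR adjusted p under 0.05, where 11% of all tested genes were lower. None was lower at an unadjusted p under 0.05, nor by DESeq2 or limma voom. The median log2 fold change was 0.25 over the members and 0.03 over all tested genes. Most of these calls were close to the threshold. The number of higher members was 1 without uninjured replicate 1 or 4, injured replicate 1, 3 or 4, or antibody-treated replicate 2, and 2 without uninjured replicate 2 or injured replicate 2. Irf8 passed in each of those fits.

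In antibody-treated against uninjured mice 4 of the 8 rose (Csf2rb, Irf8, Spi1 and Runx1), where 6.3% of all tested genes were higher. No member was lower at an edgeR adjusted p under 0.05, where 3.22% of all tested genes were lower. At an unadjusted p under 0.05, 1 member was lower, Il34, and none was called lower by DESeq2 or limma voom. The median log2 fold change was 0.39 over the members and 0.01 over all tested genes. Leaving out uninjured replicate 1 and antibody-treated replicate 4, the extremes of that component, left 2 members higher, Csf2rb and Irf8. In antibody-treated against injured mice 2 of the 8 rose (Csf2rb and Runx1), where 10.9% of all tested genes were higher, and 1 fell (Il34), where 10.7% were lower. Each pair of comparisons shares a group of mice, so the lists of called members are not independent.

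**Figure D2:**
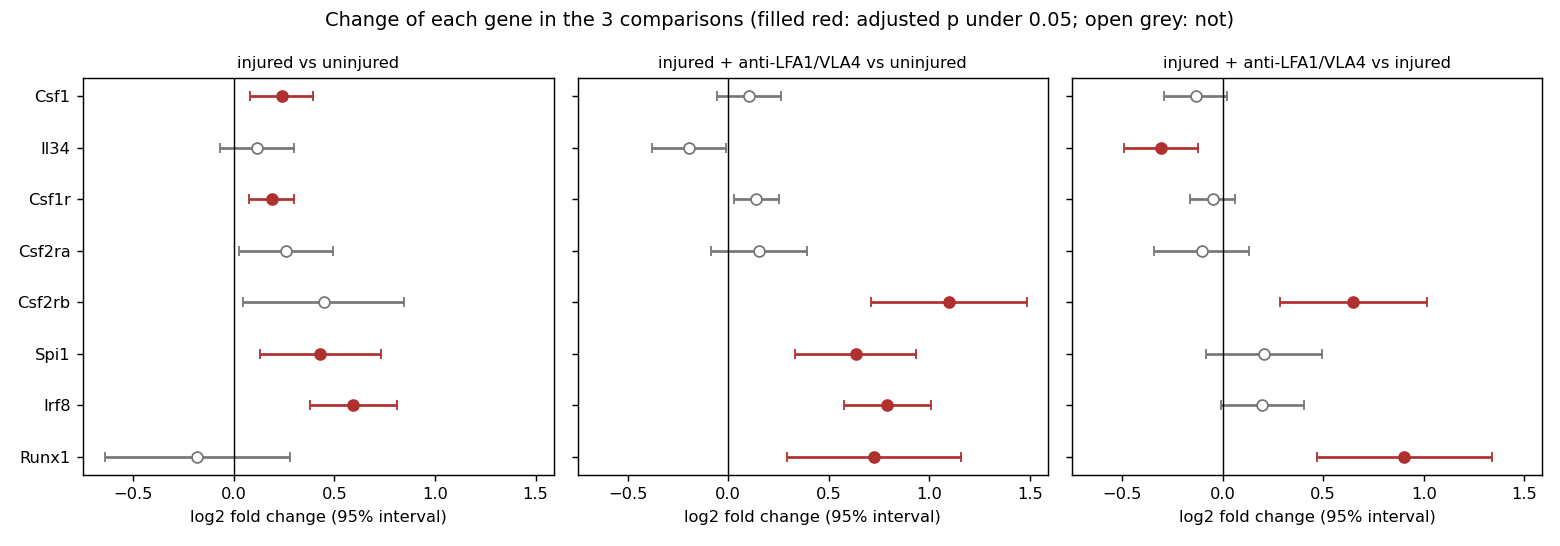
Points give the log2 fold change of each gene from the edgeR model and bars its 95% interval, 1 panel per comparison, filled red where the adjusted p was under 0.05. The intervals of Csf2rb and Runx1 lie above 0 in both comparisons that involve antibody-treated mice, and that of Il34 lies below 0 in antibody-treated against injured mice.

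Csf1 (ENSMUSG00000014599, GRCm38 chromosome 3, 107741048 to 107760469, minus strand, 20 exons) encodes macrophage colony-stimulating factor. Its level was 23.1, 22.7, 21.7 and 22.3 CPM in the uninjured libraries and 26.0, 26.5, 25.7 and 27.8 CPM in the injured libraries. It was 23.0, 25.3, 26.6 and 21.6 CPM in the antibody-treated libraries. The injured libraries were all above the uninjured ones, as for 17.4% of tested genes, and the antibody-treated libraries spread across both groups. Csf1 rose 1.18-fold in injured mice (log2 fold change 0.24, SE 0.07, edgeR adjusted p = 0.0338). The call was lost on leaving out any 1 of the 8 libraries compared, or antibody-treated replicate 2, with log2 fold changes of 0.20 to 0.25 over all 12 such fits. Against uninjured mice the antibody-treated difference was 0.10 (95% interval -0.05 to 0.26), and against injured mice it was -0.13 (-0.29 to 0.02). Neither passed the test.

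Il34 (ENSMUSG00000031750, chromosome 8, 110741829 to 110805924, minus strand, 9 exons) encodes the other CSF1R ligand. Its exons overlap antisense genes on the other strand. It measured 43.0, 52.3, 47.9 and 46.0 CPM in uninjured, 44.8, 54.3, 51.2 and 54.5 CPM in injured, and 43.5, 40.8, 37.2 and 44.0 CPM in antibody-treated libraries. All antibody-treated libraries were below all injured ones, as for 11.4% of tested genes, while uninjured libraries overlapped both. Il34 fell by 0.31 on the log2 scale in antibody-treated against injured mice (SE 0.09, edgeR adjusted p = 0.0220). This call was lost without injured replicate 2 (edgeR adjusted p = 0.0586), injured replicate 3 (0.0563) or injured replicate 4 (0.0785), and without antibody-treated replicate 2 (0.0660) or 3 (0.0516), in a range of 0.00151 to 0.0785 over its alternatives. The difference from uninjured mice was 0.11 (95% interval -0.07 to 0.30) in injured and -0.19 (-0.38 to -0.01) in antibody-treated mice, and neither passed the test over all genes.

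The Il34 comparisons moved with a trend over GC content and transcript length, which were removed together. The mean GC content of Il34 transcripts, 57.6%, is above that of 86.9% of tested genes, and its exon length of 1827 bases above that of 16.1%. With each library's trend over GC content and length removed, Il34 fell by 0.19 in injured against uninjured mice, the opposite direction (edgeR adjusted p = 0.0293). Over its alternatives, in either direction, the adjusted p ranged from 0.0191 to 0.689. With the trend removed it also fell by 0.38 in antibody-treated against uninjured (edgeR adjusted p = 0.000332, range 0.000332 to 0.339) and by 0.18 against injured mice (0.0321). With the trend kept, limma on log2(TPM + 0.1) and log2(TPM + 1) called Il34 higher in injured against uninjured mice (0.27 in both, limma adjusted p = 0.0195 and 0.0191). The lower level in antibody-treated mice was thus in the same direction with and without the trend, and the direction after injury alone was not. Summed neuronal markers were 6225 to 6785 CPM in uninjured, 5163 to 5825 in injured and 5171 to 5975 in antibody-treated libraries. Cortical neuron markers summed to 369 to 405, 321 to 369 and 312 to 346 CPM, and striatal ones to 845 to 947, 732 to 774 and 774 to 912 CPM. Thalamic neuron markers went the other way, at 162 to 210, 201 to 215 and 192 to 233 CPM. The brain region of the cubes is not named, and the part of these neurons in the Il34 levels was not tested.

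Csf1r (ENSMUSG00000024621, chromosome 18, 61100598 to 61132149, plus strand, 29 exons), the receptor of both ligands, was the member with most reads, 1541 to 2145 per library. Levels were 105, 109, 113 and 104 CPM in uninjured, 123, 119, 123 and 127 CPM in injured, and 123, 118, 118 and 116 CPM in antibody-treated libraries. All 8 injured libraries, treated or not, were above the 4 uninjured ones, and the injured and antibody-treated libraries overlapped. Of all tested genes, 17.4% were without overlap and higher in injured against uninjured mice. Csf1r rose 1.14-fold in injured mice (log2 fold change 0.19, SE 0.05, edgeR adjusted p = 0.0227). The call was lost without uninjured replicate 1 or 4, without injured replicate 1, 3 or 4 and without antibody-treated replicate 2. It was also lost with the GC and length trend removed (0.10, edgeR adjusted p = 0.135, range over its alternatives 0.00277 to 0.135).

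In antibody-treated against uninjured mice Csf1r differed by 0.14 (SE 0.05), which did not pass (edgeR adjusted p = 0.105), though the groups did not overlap, as 9.01% of tested genes did in that direction. The trend-corrected value was 0.17 (edgeR adjusted p = 0.0170, range 0.0170 to 0.318). Against injured mice the difference was -0.05 (95% interval -0.16 to 0.06), and 0.07 with that trend removed. The gene's 3' end overlaps Hmgxb3 on the other strand, and all its exon reads were counted as unique, but whether reads were assigned by strand is not given in the sources used here. Homeostatic microglia markers summed to 403 to 425 CPM in uninjured, 418 to 469 in injured and 466 to 523 CPM in antibody-treated libraries. The 11 markers of all brain macrophages, such as Aif1, C1qa and Cd68, summed to 331 to 394, 506 to 601 and 570 to 766 CPM. Within libraries, the ratio of Csf1r to these macrophage genes in TPM was 0.0769 to 0.0888 in uninjured, 0.0511 to 0.0647 in injured and 0.0381 to 0.0557 in antibody-treated mice. These ratios were below the uninjured ones in all 8 injured libraries. Most of that sum came from Ctss, C1qa, C1qb and C1qc, at means of 164, 118, 127 and 105 TPM in uninjured mice. Of the 11 genes, 8 were called higher in injured and 9 in antibody-treated against uninjured mice. Itgam, on the same list, averaged 11.2, 12.1 and 11.2 TPM in the 3 groups, so the ratio depends on the genes summed. Beside homeostatic microglia genes the Csf1r ratio was 0.124 to 0.131 in uninjured, 0.124 to 0.150 in injured and 0.106 to 0.123 in antibody-treated libraries, so it was lower in antibody-treated libraries alone.

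Csf2ra (ENSMUSG00000059326, chromosome 19, 61223957 to 61228429, minus strand, 14 exons) encodes the GM-CSF receptor alpha chain. Its exon level was 14.0, 11.9, 13.8 and 10.9 CPM in uninjured, 13.6, 15.2, 14.3 and 17.3 CPM in injured, and 15.2, 14.4, 12.05 and 14.7 CPM in antibody-treated libraries. The 3 groups overlapped. No comparison passed: the log2 fold change was 0.26 (95% interval 0.03 to 0.49) in injured and 0.16 (-0.08 to 0.39) in antibody-treated mice against uninjured, and -0.10 (-0.34 to 0.13) between them.

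Csf2ra had a large share of intron reads. Intron reads numbered 76, 76, 91 and 88 in uninjured, 115, 128, 139 and 173 in injured, and 66, 81, 72 and 51 in antibody-treated libraries. They made up 26.8% to 35.2%, 34.4% to 37.1% and 20.6% to 29.9% of its gene reads. Spi1 (11.5% to 28.4% over the 12 libraries) and Runx1 (8.70% to 43.3%) also had large shares, on fewer intron reads. Every injured library had more Csf2ra intron reads, unscaled for depth, than any library of the other groups. The share of all genes with such a pattern of intron reads was not computed. Over all genes introns took 5.76% to 6.95%, 6.57% to 7.04% and 5.81% to 7.50% of gene reads. Counting exons and introns together, Csf2ra was higher in injured mice (0.38, edgeR adjusted p = 0.0169, range over its alternatives 0.00851 to 0.340) and lower in antibody-treated against injured mice (-0.31, edgeR adjusted p = 0.0376, range 0.0376 to 0.929). Its transcripts have a GC content of 64.1%, above that of 99.3% of tested genes, and once that trend in GC and length was removed the exon differences changed sign, to -0.17 in injured against uninjured and 0.19 in antibody-treated against injured mice, without passing.

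Csf2rb (ENSMUSG00000071713, chromosome 15, 78325752 to 78353847, plus strand, 22 exons) encodes the beta chain that carries the GM-CSF, IL-3 and IL-5 signal. Levels were 2.35, 1.76, 1.61 and 2.42 CPM in uninjured, 3.38, 2.12, 2.65 and 2.96 CPM in injured, and 5.03, 3.84, 4.06 and 4.50 CPM in antibody-treated libraries. Each antibody-treated library was above every library of the other groups, as 9.01% of tested genes were against uninjured and 10.6% against injured mice. Uninjured and injured libraries overlapped. Csf2rb rose 2.14-fold in antibody-treated against uninjured mice (log2 fold change 1.10, SE 0.18, edgeR adjusted p = 0.00145), and kept this call in all 27 alternatives. It rose 1.57-fold against injured mice (0.65, SE 0.17, edgeR adjusted p = 0.0160), a call lost without antibody-treated replicate 1 (edgeR adjusted p = 0.0518, range over its alternatives 0.00182 to 0.0822). The same call was lost with limma on log2(TPM + 0.1) (limma adjusted p = 0.0822) and on log2(TPM + 1) (limma adjusted p = 0.0535). In injured against uninjured mice the difference of 0.45 (95% interval 0.05 to 0.84) did not pass (edgeR adjusted p = 0.0908).

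Csf2rb2, the adjacent paralog that in the mouse serves IL-3 alone, moved the same way: 0.69 (SE 0.20), 1.48 (SE 0.19) and 0.79 (SE 0.17) on the log2 scale in the 3 comparisons, all passing the test. Its means were 1.21 ± 0.259, 1.96 ± 0.134 and 3.40 ± 0.650 CPM (SD, n = 4). Unique reads were 96.5% for Csf2rb and 96.9% for Csf2rb2. With both summed, the rise in injured mice was 0.54 (edgeR adjusted p = 0.0153). Il3ra, the IL-3 alpha chain, rose in injured mice (0.86, edgeR adjusted p = 0.0423) and differed by 0.82 in antibody-treated against uninjured mice without passing (edgeR adjusted p = 0.0926). No library held an exon read of Il5ra. Csf3r, the G-CSF receptor, rose by 0.71 (SE 0.13) in injured and 0.73 (SE 0.13) in antibody-treated mice, with a difference of 0.02 between them.

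**Figure D3:**
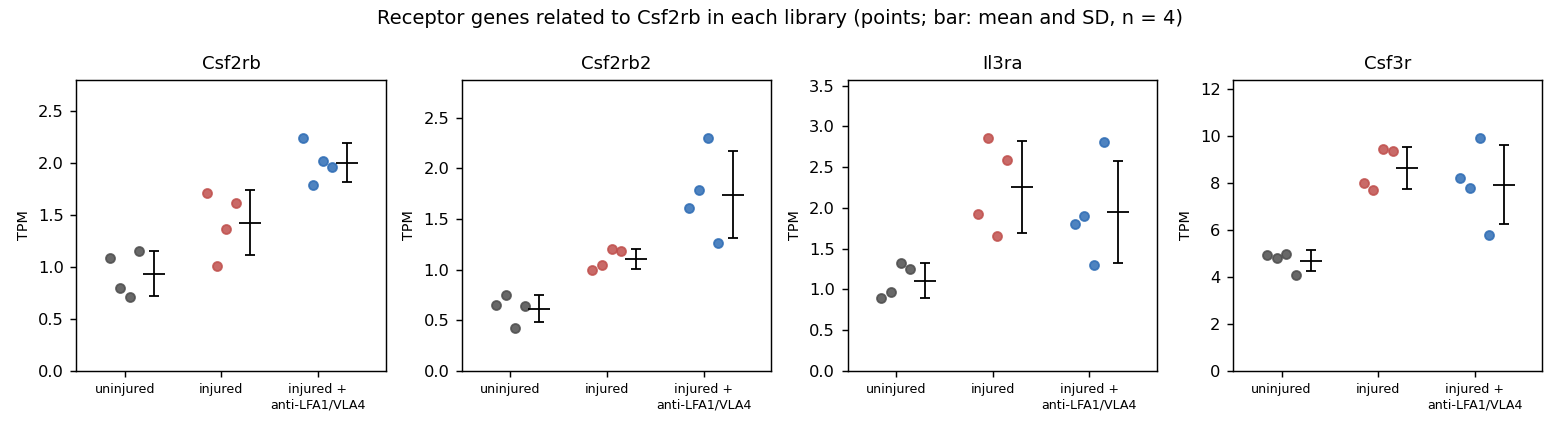
Each panel gives TPM (reads scaled to exon length, axis from 0) of a receptor gene related to Csf2rb in the 12 libraries, with mean and SD of 4 libraries per group. Csf2rb and Csf2rb2 are highest in antibody-treated libraries, while Il3ra and Csf3r overlap between injured and antibody-treated libraries.

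Ratios of RNA between receptor genes within libraries are given as descriptions, without a test. The ratio of Csf2rb to Csf1r in TPM was 0.0213, 0.0154, 0.0135 and 0.0222 in uninjured, 0.0261, 0.0170, 0.0206 and 0.0222 in injured, and 0.0389, 0.0309, 0.0327 and 0.0371 in antibody-treated libraries. All antibody-treated ratios were above all others. The ratio of Csf2ra to Csf2rb was 12.7 to 24.0 in uninjured, 11.4 to 20.2 in injured and 8.33 to 10.5 in antibody-treated libraries. The excess of Csf2ra over Csf2rb RNA was thus smallest in antibody-treated libraries. Beside the summed markers of all brain macrophages, the Csf2rb ratio overlapped between the groups, at 0.00104 to 0.00189, 0.000867 to 0.00169 and 0.00141 to 0.00182. Beside homeostatic microglia genes it was 0.00177 to 0.00275 in uninjured, 0.00210 to 0.00354 in injured and 0.00354 to 0.00457 in antibody-treated libraries, which did not overlap the uninjured ones. Border macrophage markers summed to 10.7 to 11.4, 12.7 to 16.9 and 20.9 to 24.6 CPM. Monocyte markers summed to 57.1 to 73.1, 59.4 to 65.7 and 72.7 to 103 CPM, most of it from Fn1 and Vcan, while the monocyte receptor gene Ccr2 averaged 0.499, 0.540 and 1.81 CPM and Plac8 0.0839, 0.0462 and 0.782 CPM. Markers of neutrophils, which also use this chain, summed to 0.939 to 1.63 CPM in uninjured, 1.81 to 2.18 in injured and 9.48 to 16.3 in antibody-treated libraries, with Ly6g at 0 reads in all 3 groups. The part of these cell types in the Csf2rb level was not tested.

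**Figure D4:**
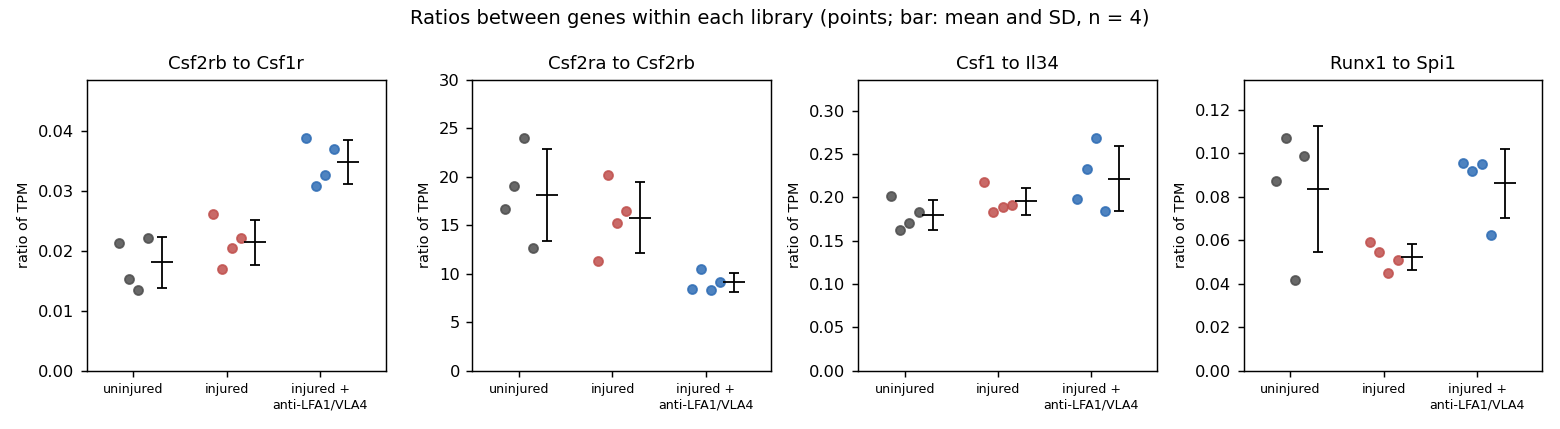
Points give the ratio of the TPM of 2 genes within each library, with mean and SD of 4 libraries per group and axes from 0. The ratio of Csf2rb to Csf1r is 0.0309 to 0.0389 in antibody-treated libraries and at most 0.0261 in the others, and that of Csf2ra to Csf2rb is lowest there.

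Irf8 (ENSMUSG00000041515, chromosome 8, 120736358 to 120756694, plus strand, 14 exons) encodes an interferon regulatory factor that pairs with PU.1 on DNA. Levels were 5.31, 6.84, 6.04 and 6.04 CPM in uninjured, 9.42, 8.78, 9.76 and 8.64 CPM in injured, and 11.2, 11.2, 9.27 and 10.3 CPM in antibody-treated libraries. Both injured groups lay above the uninjured one, as for 17.4% of tested genes in injured and 9.01% in antibody-treated mice. The 2 injured groups overlapped each other. Irf8 rose 1.51-fold in injured mice (log2 fold change 0.59, SE 0.10, edgeR adjusted p = 0.00319) and 1.73-fold in antibody-treated mice (0.79, SE 0.10, edgeR adjusted p = 0.000206). Between the injured groups the difference of 0.20 (95% interval -0.01 to 0.40) did not pass, but it did with the GC and length trend removed (0.40, edgeR adjusted p = 0.00638, range over its alternatives 0.00638 to 0.820).

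Only 25.3% of Irf8 exon reads were counted as unique. The gene lies inside the span of Gm20388, a read-through model of 4.43 megabases on the same strand. The annotated exons of Irf8 and Gm20388 do not overlap, and the reason for the low unique share was not tested. Among genes with at least 500 reads in that span, the median unique share was 39.4% for 28 genes on the same strand and 100% for 25 genes on the opposite strand. Unique Irf8 reads numbered 26, 32, 21 and 20 in uninjured, 45, 26, 41 and 42 in injured, and 33, 37, 35 and 31 in antibody-treated libraries. On unique reads alone the rises were 0.51 (edgeR adjusted p = 0.0640, range over its alternatives 0.000199 to 0.0640) and 0.58 (edgeR adjusted p = 0.0759, range 8.55e-08 to 0.0759), in the same direction but not past the threshold. Both rises passed in each of the 25 other alternatives.

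Promoters from RefSeq (GRCm38.p6) are shown for 3 members whose levels differed between groups, as the 250 bases before an annotated start, with matches to searched motifs in capitals. Entries were found for 4 of the 8 members. The outer of 2 Irf8 entries, the single Csf1 entry and the inner of 2 Runx1 entries are printed, each in a window that holds no annotated exon of the gene.
Irf8, chr8:120736108-120736357, plus strand: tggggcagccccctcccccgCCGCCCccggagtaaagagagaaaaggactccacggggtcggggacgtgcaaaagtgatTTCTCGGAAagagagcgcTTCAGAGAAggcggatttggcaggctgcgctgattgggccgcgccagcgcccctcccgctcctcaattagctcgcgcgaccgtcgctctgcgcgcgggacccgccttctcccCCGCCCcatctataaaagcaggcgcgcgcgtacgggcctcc
Csf1, chr3:107760470-107760719, minus strand: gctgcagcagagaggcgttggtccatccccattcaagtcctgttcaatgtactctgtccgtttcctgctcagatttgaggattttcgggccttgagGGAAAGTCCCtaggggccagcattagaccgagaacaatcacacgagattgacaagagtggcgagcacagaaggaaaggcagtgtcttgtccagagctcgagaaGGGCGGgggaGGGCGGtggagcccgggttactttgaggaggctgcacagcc
Runx1, chr16:92697330-92697579, minus strand: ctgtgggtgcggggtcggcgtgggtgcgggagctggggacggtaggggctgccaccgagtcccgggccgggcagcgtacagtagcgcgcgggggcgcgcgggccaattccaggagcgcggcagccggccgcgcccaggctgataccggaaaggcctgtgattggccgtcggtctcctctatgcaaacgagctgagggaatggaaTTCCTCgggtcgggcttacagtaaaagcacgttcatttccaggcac
The motifs, searched on both strands, were GAGGAA (PU.1 core), TGTGGT (RUNX core), TTCNNNGAA (STAT GAS), GGGCGG (GC box), GAAA, any 2 bases and GAAA again (interferon response element), and GGGA, any 2 bases and TTCC (NF-kB). The printed Irf8 promoter held 2 STAT matches beginning 171 and 153 bases before the start, and 7.02% of all 32851 promoters held at least 1. The inner Irf8 promoter (chr8:120738389-120738638, plus strand) held a match to none of the 6 motifs. Csf1 held an NF-kB match 154 bases before the start, a motif found in 1.21% of promoters. The inner Runx1 promoter held a PU.1 core 46 bases before the start, as 23.25% of promoters did. The printed Irf8 and Csf1 promoters each held 2 GC boxes, and 32.7% of all promoters held at least 1. The motifs do not overlap one another in these windows, and a match is a description of the letters only.

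Spi1 (ENSMUSG00000002111, chromosome 2, 91082390 to 91115756, plus strand, 10 exons) encodes PU.1, which switches on Csf1r and many other macrophage genes. Its levels were 3.36, 3.65, 5.23 and 3.89 CPM in uninjured, 5.29, 5.29, 5.12 and 6.04 CPM in injured, and 5.61, 6.12, 6.13 and 7.21 CPM in antibody-treated libraries. Uninjured replicate 3 reached the range of injured mice, and all antibody-treated libraries were above all uninjured ones, as for 9.01% of tested genes. Spi1 rose 1.35-fold in injured mice (log2 fold change 0.43, SE 0.14, edgeR adjusted p = 0.0414) and 1.55-fold in antibody-treated mice (0.63, SE 0.14, edgeR adjusted p = 0.0118). The first call was kept when uninjured replicate 3 or antibody-treated replicate 3 or 4 was left out and lost without any of the other 9 libraries, at log2 fold changes of 0.35 to 0.58 over the 12 fits. It was also lost with the GC and length trend removed (0.22, edgeR adjusted p = 0.222, range over its alternatives 0.00509 to 0.222). The second was kept in each of the 12 fits. Between injured groups the difference was 0.20 (95% interval -0.08 to 0.49).

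Spi1 and Irf8 moved in near proportion. The ratio of Irf8 to Spi1 in TPM was 0.738 to 1.20 in uninjured, 0.916 to 1.22 in injured and 0.913 to 1.28 in antibody-treated libraries. Beside the summed markers of all brain macrophages, Spi1 had ratios of 0.00584 to 0.00806, 0.00516 to 0.00637 and 0.00469 to 0.00654, and Irf8 of 0.00595 to 0.00700, 0.00547 to 0.00719 and 0.00491 to 0.00656. These overlapped between the groups. Beside homeostatic microglia genes alone, the Irf8 ratio was 0.00945 to 0.0114 in uninjured, 0.0132 to 0.0154 in injured and 0.0137 to 0.0157 in antibody-treated libraries, with both injured groups above the uninjured one.

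Runx1 (ENSMUSG00000022952, chromosome 16, 92601466 to 92826149, minus strand, 16 exons) encodes the DNA-binding subunit of core binding factor. It had few reads: 16, 22, 12 and 21 in uninjured, 18, 17, 14 and 19 in injured, and 27, 29, 30 and 22 in antibody-treated libraries. These gave 1.08, 1.43, 0.805 and 1.41 CPM, 1.15, 1.06, 0.843 and 1.12 CPM, and 1.97, 2.06, 2.14 and 1.65 CPM. Each antibody-treated library was above every other, as 9.01% of tested genes were against uninjured and 10.6% against injured mice. Injured libraries lay within the uninjured range. Runx1 rose 1.87-fold in antibody-treated against injured mice (log2 fold change 0.90, SE 0.20, edgeR adjusted p = 0.00712) and 1.65-fold against uninjured mice (0.72, SE 0.20, edgeR adjusted p = 0.0364). The first call was kept in all 12 fits that left out 1 library. It was lost with limma on log2(TPM + 0.1) (adjusted p = 0.0525) and on log2(TPM + 1) (adjusted p = 0.0511). The second was lost in 12 of 26 alternatives. Among them were the fits without uninjured replicate 1 or 3, injured replicate 2 or antibody-treated replicate 1 or 2. Others were the DESeq2 Wald test (adjusted p = 0.0672, range over its alternatives 0.00655 to 0.116) and limma on either TPM scale. It was also lost with no count filter (edgeR adjusted p = 0.0573) and with the compared groups alone (edgeR adjusted p = 0.0780). In injured against uninjured mice the difference was -0.18 (95% interval -0.64 to 0.28).

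Some markers of other tissues were high in the same libraries as Runx1. Fibroblast markers summed to 110 to 119 CPM in uninjured, 128 to 144 in injured and 417 to 468 in antibody-treated libraries. Bone markers summed to 16.9 to 21.3, 19.0 to 22.5 and 23.9 to 27.4 CPM, mostly from Alpl and Dmp1. Among them Ibsp averaged 0.183, 0.153 and 1.11 CPM, but Dmp1 7.22, 6.71 and 5.75 CPM and Sp7 2.16, 1.86 and 2.09 CPM. B and plasma cell markers summed to 36.4 to 40.9, 33.8 to 39.8 and 60.5 to 88.6 CPM, with Igkc, an antibody light chain gene, at 0.449, 0.613 and 32.4 CPM. Skeletal muscle markers had their high values in the same libraries, and the part of these tissues and cells in the Runx1 level was not tested. Cbfb, the partner subunit of Runx1, rose by 0.27 (SE 0.09, edgeR adjusted p = 0.0453) in antibody-treated against injured mice. Runx2, the bone paralog, did not pass in any comparison, at -0.10 (SE 0.10), -0.20 (SE 0.10) and -0.10 (SE 0.10). Runx3 had 5, 7 and 10 reads per group and Irf4, a paralog of Irf8, had 16, 21 and 32, too few to be tested.

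The other genes of the axis were read from lists. Among 9 other hematopoietic cytokine ligands only Kitl, Flt3l and Thpo passed the count filter. None was called by edgeR. In injured mice 1 was lower at an unadjusted p under 0.05, Kitl at -0.63 (SE 0.23), and DESeq2 and limma voom each called 1 lower. In antibody-treated mice none reached an unadjusted p under 0.05 against uninjured mice, nor a call by either tool. Against injured mice 1 was lower at that level, Thpo at -0.43 (SE 0.16), with 1 called lower by limma voom and none by DESeq2. Csf2, the GM-CSF gene itself, had no read in uninjured or antibody-treated libraries, and 2 reads in all in the injured libraries, so this ligand was not detectable at this depth. Of the receptor genes reported here, Csf2rb2, Csf3r, Il3ra and Crlf2 rose in injured mice, Csf2rb2 and Csf3r rose in antibody-treated against uninjured mice, and Csf2rb2 rose against injured mice.

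Signalling genes of the CSF receptors were all tested, 31 of 31. In injured mice 12 rose and 3 fell, where 11.9% of all tested genes were higher and 11% lower, and in antibody-treated mice 10 rose, where 6.3% were higher. Their medians were 0.19 and 0.16, beside medians of 0.03 and 0.01 over all tested genes. Fgr, a Src family kinase of myeloid cells, rose by 2.01 (SE 0.34) and 2.60 (SE 0.34), and Trem2, a microglial receptor that signals through Tyrobp, by 0.93 (SE 0.14) and 1.18 (SE 0.14). Against injured mice 1 rose, Lyn (0.41, SE 0.10), and 1 fell, the PI3K subunit gene Pik3cd (-0.26, SE 0.06), fewer than the 10.9% and 10.7% over all tested genes. Of 29 tested among 36 other myeloid transcription factors, 9 rose and 3 fell in injured mice, 8 rose in antibody-treated mice, and 6 rose and 2 fell between the injured groups, to be read beside the same shares over all tested genes. Nr4a1, also an immediate early gene, rose by 0.76 (SE 0.06) in injured mice and fell by 0.55 (SE 0.06) in antibody-treated against injured mice. Egr2, likewise an early gene, rose by 0.70 (SE 0.12) and fell by 0.39 (SE 0.12) in those comparisons. Irf7, which drives interferon genes, rose by 1.32 (SE 0.15) in antibody-treated mice and overlaps Phrf1 on the other strand. Tal1, a blood and vessel regulator, rose by 0.78 (SE 0.17) in injured and 0.76 (SE 0.17) in antibody-treated mice. Ikzf1, the lymphoid and myeloid regulator Ikaros, rose by 0.50 (SE 0.10) against injured mice.

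Across the 12 libraries, levels of the members varied together to different degrees, given as Pearson correlations of log2 CPM that include the differences between groups. Irf8 correlated with Spi1 (0.80), Csf1r (0.80) and Csf2rb (0.78), and Csf1r with Spi1 (0.74). Runx1 followed Csf2rb (0.73) and hardly Csf1r (0.04), and Il34 ran against Runx1 (-0.68) and Csf2rb (-0.61). Among 13453 genes with a mean of at least 1 CPM, the closest to Csf2rb were the macrophage gene Adgre1 (0.95), Fbln7 (0.94) and Ms4a6c (0.93). Closest to Irf8 were Fmod (0.98), Saa3 (0.97) and Hcls1 (0.96), and to Spi1 Slc15a3 (0.95), Tapbp (0.94) and Cd151 (0.93). Closest to Csf1r were Slc6a13 (0.94), Sik1 (0.94) and Oat (0.92), and to Csf1 Kdm6b (0.95), Sec14l5 (0.93) and Padi2 (0.90). Closest to Il34 were Me3 (0.96), Sept5 (0.95) and Bdh1 (0.95), to Csf2ra Nubp1 (0.92), Sertad3 (0.90) and Chst10 (0.89), and to Runx1 Meig1 (0.93), Lgals8 (0.92) and Serinc2 (0.92). Of these genes, Adgre1 was on the list of brain macrophage markers.

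**Figure D5:**
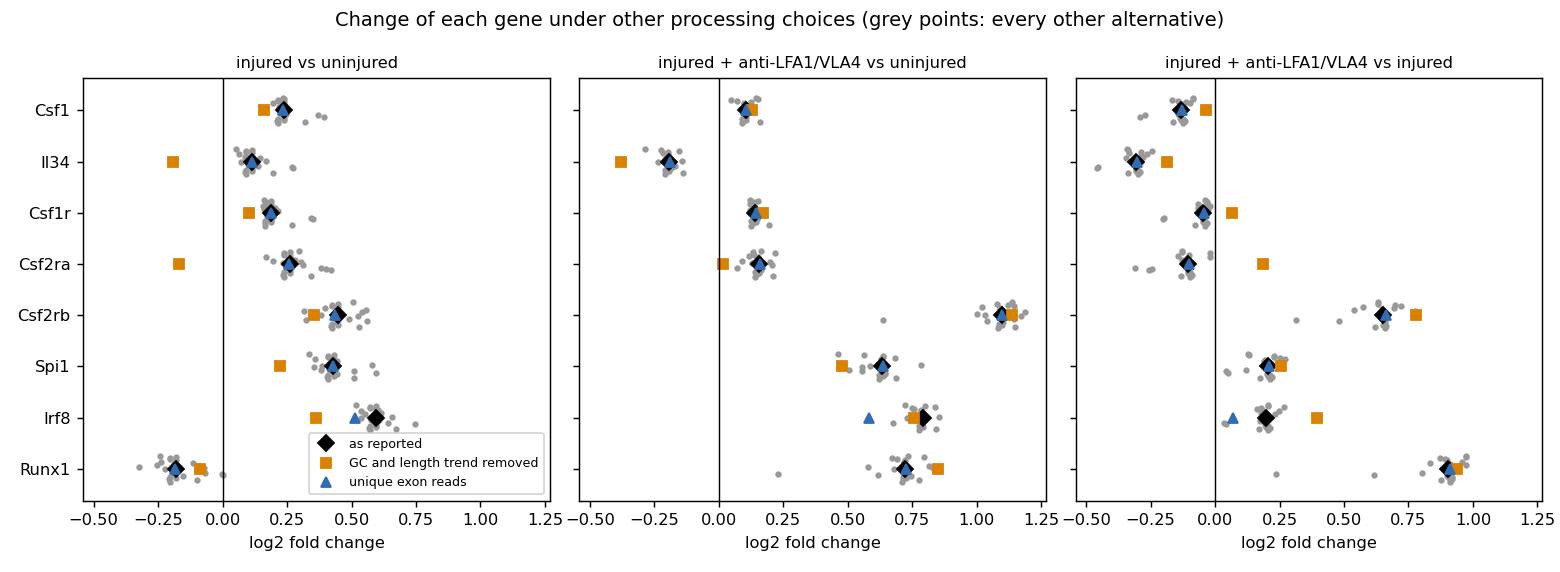
Each point is the log2 fold change of a gene under 1 processing choice, with 1 panel per comparison, diamonds for the reported values, squares with the GC and length trend removed, triangles for unique exon reads and grey points for every other alternative. In injured against uninjured mice the squares of Il34 (-0.19) and Csf2ra (-0.17) lie across 0 from the diamonds, and the triangles of Irf8 lie left of the diamonds in all 3 panels.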

How the data were processed

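Total RNA sequencing libraries (stranded kit, per the labels' protocols) of 12 mice, called biological replicates by the labels, were compared in 3 groups of 4. Trimmomatic 0.39, FastQC 0.11.8, CASAVA 1.8.2 and the GRCm38 build appear in the submitters' processing notes. Which aligner and counter were used is not given in the sources used here. The deposited tables hold raw counts of exon, unique exon and intron reads per gene, and TPM by the authors, which a recalculation from exon counts and lengths matched within 0.001 in all 12 tables. Exon counts were tested with edgeR 4.0.16 (R 4.3.3), TMM scaling, filterByExpr (minimum count 10), 1 quasi-likelihood model over all 12 libraries and Benjamini-Hochberg adjustment over 14771 genes at 0.05. Ratios used TPM, on which all genes shift by a median log2 of 0.18 in injured mice. Alternatives used DESeq2 1.42.0, limma 3.58.1 and a GC and length trend from mgcv 1.9.3. Besides the members, the text names the 3 genes that correlated best with each (log2 of CPM plus 0.5), list genes that share a receptor chain or are close paralogs, and the 2 genes of smallest p per list and comparison. Members and lists were chosen with earlier results of these data known. Sequences of RefSeq promoters are those of GRCm38.p6, and gene coordinates are those of GENCODE on GRCm38. Exon reads per library, 13330379 to 16121577, limit precision for Runx1 (12 to 30 reads) and Csf2rb (24 to 69). The result of 1 listed receptor gene is not reported here.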

Additional observations from a re-analysis of the deposited data

Results flagged for a closer look

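In antibody-treated mice the ratio of Runx1 to Spi1 in TPM was 0.0624 in replicate 4, far from the 0.0918, 0.0950 and 0.0955 of the other libraries. The gap took a share of 0.889 of the group's range and exceeded Dixon's 95% critical value for 4 samples. This was 1 of 63 groups of values checked, where chance marks about 5% of groups. The same library was an extreme of the first principal component.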

How the results depend on the processing

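Csf2rb in antibody-treated against uninjured mice kept its direction and call in all 27 alternatives, and Irf8 in both comparisons with uninjured mice in all but the unique reads. In injured against uninjured mice the number of members higher, 4, was 1 with no count filter, 7 with limma on log2(TPM + 0.1) and 7 on log2(TPM + 1), 2 after removal of the GC and length trend (with 1 lower) and 2 without uninjured replicate 1 and antibody-treated replicate 4 (the extremes of the first principal component), an alternative chosen after seeing the data. Leaving out single libraries gave 1 to 4. Il34 was reversed, at -0.19, with the GC and length trend removed. All genes called, 3396, were 5198 and 5200 with limma on log2(TPM + 0.1) and log2(TPM + 1), and 1385 to 4606 without single libraries. In antibody-treated against uninjured mice the 4 higher members were 2 without these 2 libraries and 3 to 4 without single libraries, and 1 was lower (Il34) with the trend removed. All genes called there, 1407, were 882 with the compared groups alone, 2911 with the trend removed, 761 without these 2 libraries and 853 to 3969 without single libraries, 3969 being without antibody-treated replicate 3. In antibody-treated against injured mice limma on either TPM scale called 0 higher and 2 lower, 2 were lower with exon and intron reads summed, and without single libraries 1 to 2 were higher and 0 to 1 lower. All genes called, 3193, were then 1890 to 3612. On the TPM scales the median of all genes was 0.18 and 0.16 in injured against uninjured and -0.15 and -0.13 in antibody-treated against injured mice. The cause of these shifts was not tested.

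Of called genes 51.9% were higher in injured and 66.2% in antibody-treated against uninjured mice, and 50.5% in antibody-treated against injured mice. By library size alone the first shares were 76.0% and 86.3%, after removal of the GC and length trend 40.2% and 41.1%, and on log2(TPM + 0.1) the 3 were 93.6%, 87.3% and 15.6%. The DESeq2 Wald test gave 54.0% in antibody-treated against uninjured mice.

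With a replicate block the number of members higher in injured mice was 1 (Irf8), Runx1 lost its call in antibody-treated against uninjured mice (edgeR adjusted p = 0.0747, range over its alternatives 0.00655 to 0.116), and 895 genes were called in that comparison, 76.2% of them higher. The numbers do not pair the mice: deviations of the 12 same-numbered pairs correlated at -0.532 to 0.434, 2 of them over 0.1, and 2 of 12 libraries correlated best with their own number.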
